A study of Mus musculus with 33 samples.

Results

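The bone morphogenetic protein (BMP) axis was followed here through 10 genes: the ligand genes Bmp2, Bmp4, Bmp5 and Bmp7, the inhibitory Smad genes Smad6 and Smad7, and the Id genes Id1, Id2, Id3 and Id4. They were selected by gene name from the 52631 genes of the deposited expression table, and all 10 were found once. All 10 also passed the filter on low values that left 16508 genes for testing (at least 1 FPKM in at least 3 libraries, where FPKM counts fragments relative to transcript length and library size). Bmp5, the weakest of them, was listed at 0 in all 3 libraries of mES, of XEN and of RA/CHIR at day 16.

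The study followed mouse embryonic stem cells of strain 129S2/SvPas through differentiation in culture, with 11 groups of 3 libraries. The starting cells (mES) grew on mouse embryonic fibroblasts arrested with mitomycin, with 15% serum and 1000 U/mL of the cytokine LIF, so their RNA may include some from the feeders. In the RA arm the cells were plated on gelatin and received 10 µM all-trans retinoic acid in 15% serum for 10 days, then 10% serum without the inducer for 6 days. In the RA/CHIR arm 5 µM CHIR was added to the same dose of retinoic acid over the same days, and both arms were sampled at days 4, 7, 10 and 16. CHIR is a name commonly used for an inhibitor of the kinase GSK3, and blocking GSK3 stabilises beta-catenin. As references, the study used smooth muscle cells (SMC) and a line of extraembryonic endoderm (XEN), both of this strain and both kept in 15% serum with no inducer. The labels name the RA cells as resembling smooth muscle and the RA/CHIR cells as resembling XEN at every day. LIF was listed for mES alone, not for the arms or the reference lines. No arm with CHIR alone or without inducers was analysed here. In the comparisons of the arms with mES, treatment, time in culture, loss of LIF and the move from feeders to gelatin thus cannot be told apart. From day 10 to day 16, withdrawal of the inducers, the change of serum and time cannot be told apart either.

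BMP ligands are secreted dimers that bind pairs of serine/threonine kinase receptors, which phosphorylate Smad1, Smad5 and Smad9. These join Smad4 and enter the nucleus, where the Id genes and Smad6 are among the best known direct targets. Id proteins lack a DNA-binding region and hold E proteins in inactive dimers, while Smad6 and Smad7 feed back on the receptors, Smad6 mainly on BMP signalling and Smad7 on TGF-beta and BMP signalling alike. In embryonic stem cells grown with serum and LIF, BMP-driven Id expression is known to help hold off neural differentiation, and in the early embryo BMP ligands pattern mesoderm and extraembryonic tissues.

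Of the 10 genes, 6 had an entry among the RefSeq promoter sequences used here (build GRCm38.p6, 250 bases before to 50 bases after the annotated start): Bmp4, Bmp5, Id2, Id3, Id4 and Smad6. Entries for Bmp2, Bmp7, Id1 and Smad7 were not used here. The windows of Id2, Id3 and Smad6 are printed because these 3 genes moved together from mES to day 4, and that of Id4 because it is the Id gene that did not move with them. Capitals mark matches, on either strand, to the GC-rich letters GGCGCC and GGAGCC bound by Smad1 and Smad5, to the palindromic Smad box GTCTAGAC, and to the E-box CAGCTG, all printed 5′ to 3′ along the gene's strand.
Id2 promoter (chr12:25096043-25096342, minus strand): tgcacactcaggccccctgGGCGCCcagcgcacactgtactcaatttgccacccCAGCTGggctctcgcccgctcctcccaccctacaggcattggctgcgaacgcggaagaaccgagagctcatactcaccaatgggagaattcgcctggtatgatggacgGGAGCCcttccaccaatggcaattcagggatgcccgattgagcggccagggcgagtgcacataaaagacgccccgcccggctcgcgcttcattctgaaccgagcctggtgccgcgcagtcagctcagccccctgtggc
Id3 promoter (chr4:136143572-136143871, plus strand): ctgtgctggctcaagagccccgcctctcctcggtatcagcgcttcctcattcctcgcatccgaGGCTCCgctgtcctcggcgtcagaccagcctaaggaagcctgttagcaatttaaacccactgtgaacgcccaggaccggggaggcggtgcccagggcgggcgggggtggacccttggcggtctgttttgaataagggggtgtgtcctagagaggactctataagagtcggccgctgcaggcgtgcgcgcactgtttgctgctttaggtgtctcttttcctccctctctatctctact
Id4 promoter (chr13:48260866-48261165, plus strand): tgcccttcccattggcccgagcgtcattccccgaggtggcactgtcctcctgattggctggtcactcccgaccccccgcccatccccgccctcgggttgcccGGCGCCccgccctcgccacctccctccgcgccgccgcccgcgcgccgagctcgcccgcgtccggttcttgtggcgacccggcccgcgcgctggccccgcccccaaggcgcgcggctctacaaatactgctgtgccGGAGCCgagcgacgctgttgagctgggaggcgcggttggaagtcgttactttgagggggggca
Smad6 promoter (chr9:64022010-64022309, minus strand): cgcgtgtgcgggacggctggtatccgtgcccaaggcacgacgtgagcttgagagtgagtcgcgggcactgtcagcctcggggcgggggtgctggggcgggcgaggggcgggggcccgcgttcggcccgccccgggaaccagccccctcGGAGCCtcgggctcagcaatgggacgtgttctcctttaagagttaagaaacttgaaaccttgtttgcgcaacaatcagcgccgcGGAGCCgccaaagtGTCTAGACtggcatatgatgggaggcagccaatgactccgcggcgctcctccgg

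The 4 printed windows each held GGAGCC, which 30.8% of all 32851 promoter windows of the table held as well. With bases counted from the start and negative before it, its first base lay at -88 in Id2, at -13 in Id4, at -187 on the opposite strand in Id3, and at -102 and -18 in Smad6. GGCGCC was present in Id2 at -231 and in Id4 at -148, and in 11.9% of all windows. The palindromic box GTCTAGAC lay across the start of Smad6, from base -4 to base 4, and occurred in 70 of the 32851 windows (0.213%). CAGCTG was found in Id2 (16.3% of all windows), and the other E-box searched, CACGTG, in Bmp4 only of these 6 genes (7.15% of all windows). Bmp4 also held GGAGCC, and Bmp5 held none of the motifs. The 4 printed windows were rich in G and C (60.0% to 73.3%, with a median of 52.7% over all windows). A match describes the letters and says nothing of binding.

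In the GENCODE M21 annotation of GRCm38, Id1 is the most compact of the 10 genes (chromosome 2, 152736251 to 152737410, 1 exon block of 1160 bases). Id2 lies on chromosome 12 (25093799 to 25097140), Id3 on chromosome 4 (136143497 to 136145755), Id4 on chromosome 13 (48261228 to 48266026) and Smad6 on chromosome 9 (63953076 to 64022059). The printed promoter windows of Id2 and Id3 lie wholly inside these gene bounds, and that of Id4 ends before them. Motif positions thus count from the RefSeq start, which differs from the GENCODE start for these 3 genes. Bmp2 lies on chromosome 2 (133552159 to 133562885), Bmp4 on chromosome 14 (46383520 to 46390669), Bmp5 on chromosome 9 (75775364 to 75900310) and Bmp7 on chromosome 2 (172868012 to 172940321). No source used here states whether fragments were counted by strand, and annotated genes on the opposite strand touch exons of Bmp4, Bmp5 and Id4. The highest value of such a gene in any library was 0.2426 FPKM (Gm49291, opposite Id4), and Gm15222, opposite an intron of Bmp4, reached 5.057 FPKM.

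The number of reads behind a value is unknown, because the table gives FPKM alone; per the labels' protocols, libraries were read to about 25M paired reads of 150 bp. FPKM columns summed to between 597010 and 1086371, and between 11573 and 13662 genes reached 1 FPKM in a library. Marker lists were summed to check the labels. The 5 pluripotency markers summed to 2403.7 to 2953.9 FPKM in mES, and at day 16 to 7.55 to 9.68 FPKM in the RA arm and 178.2 to 188.3 FPKM in the RA/CHIR arm, with all 5 at 1 FPKM or more in the latter. The 4 smooth muscle markers summed at day 16 to 7078.8 to 7969.0 FPKM in the RA arm, with 17100.6 to 17721.1 FPKM in SMC and 417.2 to 428.7 FPKM in the RA/CHIR arm. The 7 extraembryonic endoderm markers summed to 1095.5 to 1192.1 FPKM in RA/CHIR cells at day 16 and 664.7 to 710.0 FPKM in XEN. RA cells held this list too, at 332.4 to 368.6 FPKM at day 16 (45.3 to 79.5 FPKM in mES). At day 4 RA libraries were above RA/CHIR libraries, at 557.5 to 572.5 against 391.0 to 412.3 FPKM, and at days 7 and 10 below them. The 5 visceral endoderm markers, which the XEN line held at 10.9 to 22 FPKM, summed to 617.9 to 639.0 FPKM in RA/CHIR cells at day 16. At days 4, 7 and 10 this sum was larger in RA than in RA/CHIR cells, at 80.1 to 83.6 against 15.2 to 15.9 FPKM at day 4. The 7 fibroblast markers, the list that stood for feeder cells, were at 37.2 to 63.3 FPKM in mES and 2796.8 to 3487.0 FPKM in RA cells at day 16, and the SMC line held them at 11696.7 to 12018.0 FPKM. The 3 mesothelium markers summed to 183.5 to 196.2 FPKM in RA cells at day 10 and 208.5 to 229.2 FPKM at day 16. At day 16 RA/CHIR cells held them at 33.1 to 33.9 FPKM, and SMC at 6.06 to 7.16 FPKM. Sums for endothelium, blood and neural markers are not given here. In such bulk libraries, fewer cells of a type and less RNA per cell cannot be told apart, and the part of any marker list in the results below was not tested.

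Among the ligand genes followed here, the arms differed in level. Bmp2 was higher in RA/CHIR than in RA cells from day 7, and Bmp4 and Bmp7 were lower in RA/CHIR cells at day 16. Levels are given as FPKM per library or as the mean ± SD of 3 libraries, and changes as differences on the log2(FPKM + 1) scale ± standard error from limma with Benjamini-Hochberg adjusted p. A gene was called at an adjusted p under 0.05 and a difference of at least 1 in size, and rose, fell, higher and lower are used for such calls. Nothing in the labels says that the libraries of a group came from separate cultures, so p-values measure the spread between these libraries, which may be technical.

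Bmp2, a ligand known for its part in heart and extraembryonic development, was at 0.506, 0.495 and 0.416 FPKM in mES. At day 4 it was at 7.27, 7.54 and 7.18 FPKM in the RA arm and at 5.43, 5.26 and 6.53 FPKM in the RA/CHIR arm, above every mES library. Both rises were called, by 2.50 ± 0.09 (adjusted p = 3.25e-18) in the RA arm and 2.19 ± 0.09 (adjusted p = 8.53e-17) in the RA/CHIR arm, and both use the same mES libraries. After day 4 the arms diverged, and at day 7 the RA libraries were at 1.87, 2.40 and 2.38 FPKM and the RA/CHIR libraries at 9.43, 10.4 and 11.3 FPKM. In the RA arm Bmp2 thus fell by 1.38 on the log2 scale between days 4 and 7 (adjusted p = 6.76e-12). By day 16 the RA/CHIR libraries held 19.4, 20.4 and 19.6 FPKM and the RA libraries 4.20, 4.90 and 4.81 FPKM, with no overlap. Bmp2 was higher in RA/CHIR than in RA cells by 1.82 ± 0.09 at day 7 (adjusted p = 8.78e-15), 1.74 ± 0.09 at day 10 (adjusted p = 1.36e-14) and 1.88 ± 0.09 at day 16 (adjusted p = 1.49e-15), whereas the difference at day 4 was -0.31 ± 0.09. The difference between arms itself moved by 2.05 ± 0.13 from day 4 to day 10 (interaction, adjusted p = 1.67e-12).

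Over the 11 groups, Bmp2 was highest in RA/CHIR cells at day 16 (19.8 ± 0.55 FPKM), above XEN (11.6 ± 0.804 FPKM), whose libraries overlapped those of RA/CHIR at day 10 (10.6 ± 1.08 FPKM). The lowest group was SMC, at 0.136, 0.0754 and 0 FPKM, and Bmp2 was higher in RA cells at day 16 than in SMC by 2.40 ± 0.09 (adjusted p = 5.67e-18).

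Bmp4, the ligand most used to direct stem cells towards mesoderm, was the most abundant of the 4 ligand genes in mES, at 19.3, 20.3 and 25.2 FPKM. At day 4 its level was 3.30, 3.92 and 4.62 FPKM in the RA arm and 3.14, 3.96 and 3.54 FPKM in the RA/CHIR arm. The fall was called in both arms, -2.19 ± 0.13 in RA (adjusted p = 2.94e-14) and -2.31 ± 0.13 in RA/CHIR (adjusted p = 1.47e-14), and the arms overlapped at day 4. At day 7 they no longer overlapped, at 7.49, 7.39 and 7.04 FPKM in RA and 5.25, 3.78 and 4.30 FPKM in RA/CHIR, a difference of -0.62 ± 0.13 (adjusted p = 0.000216) that was too small for a call. At day 10 they stood at 9.33, 7.99 and 10.5 FPKM in RA and 7.34, 6.31 and 7.49 FPKM in RA/CHIR, again without overlap (difference -0.35 ± 0.13, adjusted p = 0.0214, not called). The gap was called at day 16, after the inducers had been withdrawn, when libraries held 20.6, 26.3 and 19.7 FPKM in RA and 1.05, 1.06 and 0.88 FPKM in RA/CHIR. Between days 10 and 16 Bmp4 rose by 1.17 ± 0.13 in the RA arm (adjusted p = 2.09e-08) and fell by 2.01 in the RA/CHIR arm (adjusted p = 3.86e-13). These opposite moves gave an interaction of -3.18 ± 0.18 (adjusted p = 1.23e-13) and a difference at day 16 of -3.53 ± 0.13 (adjusted p = 1.49e-18). XEN cells, the line that the RA/CHIR cells are labelled to resemble, kept Bmp4 at 14.1, 11.4 and 14.6 FPKM, above RA/CHIR cells at day 16, with a difference of -2.84 ± 0.13 for RA/CHIR against XEN (adjusted p = 1.16e-16).

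Bmp7 and Bmp5 belong to a different branch of the ligand family from Bmp2 and Bmp4. Bmp7 was at 6.65, 6.51 and 3.67 FPKM in mES, replicate 3 standing below the others. At day 4 its order was RA/CHIR above RA, with 4.33, 4.76 and 4.52 FPKM against 2.31, 2.23 and 1.80 FPKM, a difference of 0.83 ± 0.13 (adjusted p = 9.98e-06) that was below the size needed for a call. At day 10 the order was the opposite, with 2.12, 2.98 and 2.61 FPKM in RA/CHIR and 4.98, 5.17 and 4.58 FPKM in RA. The interaction between days 4 and 10 was -1.57 ± 0.19 (adjusted p = 1.34e-07). At day 16 the RA/CHIR libraries held 0.0644, 0.0691 and 0.0313 FPKM of Bmp7, and the RA libraries 3.78, 3.16 and 4.42 FPKM. Bmp7 was lower in RA/CHIR cells, with a difference of -2.17 ± 0.13 (adjusted p = 9.45e-14), and the interaction between days 10 and 16 was -1.44 ± 0.19 (adjusted p = 5.27e-07). Both reference lines shared that low level: Bmp7 was listed at 0 in all 3 XEN libraries and in 2 of the 3 SMC libraries. In the RA arm the fall from mES to day 4 (-1.05 ± 0.13, adjusted p = 9.85e-08) was close to the threshold, and it was not called without mES replicate 1 (-0.93), mES replicate 2 (-0.94) or RA replicate 3 of day 4 (-0.98).

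Bmp5 was the weakest ligand gene and was highest in RA cells at day 4, at 2.19, 2.12 and 2.54 FPKM. RA/CHIR libraries of that day held 0.0881, 0.185 and 0.079 FPKM, a called difference of -1.56 ± 0.12 (adjusted p = 3.46e-11). In later RA groups its mean was 1.33 ± 0.5 FPKM at day 7, 0.683 ± 0.23 FPKM at day 10 and 0.708 ± 0.084 FPKM at day 16, with no step called. The day 10 libraries of the arms overlapped, and the interaction from day 4 to day 10 was 1.26 ± 0.17 (adjusted p = 7.85e-07). Since mES was listed at 0, the rise to day 4 in the RA arm (adjusted p = 1.22e-12) has no fold. At these levels the pseudocount of 1 compresses differences: with a pseudocount of 0.1 the arms' differences at day 7 (-2.14) and day 16 (-3.01) also passed the threshold.

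**Figure D1:**
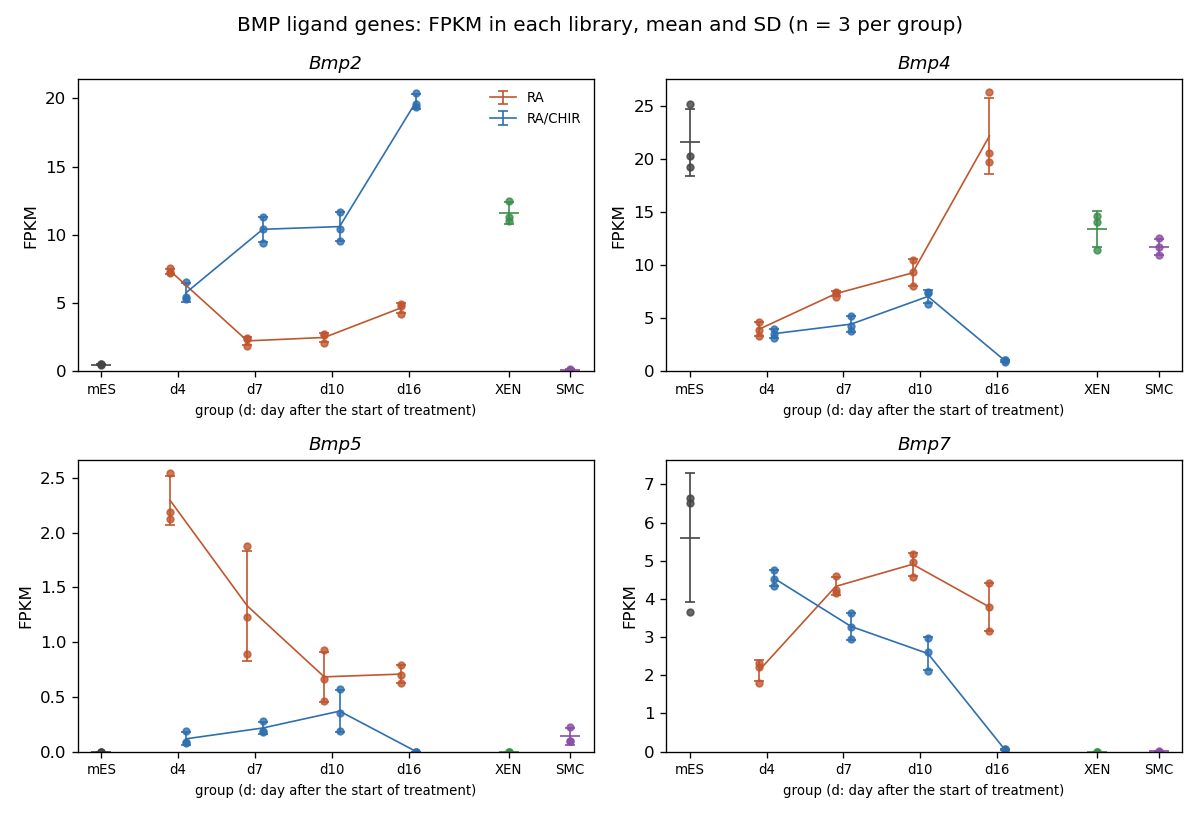
Level of the 4 BMP ligand genes in FPKM (y axis, linear) in each library (points) of mES, of the RA and RA/CHIR arms at days 4, 7, 10 and 16, and of XEN and SMC, with bars for the mean and SD of 3 libraries and lines joining the means within an arm. Bmp2 climbs to 19.8 FPKM in RA/CHIR and Bmp4 to 22.2 FPKM in RA at day 16, while Bmp4 and Bmp7 sit at 0.998 and 0.055 FPKM in RA/CHIR.

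Summed over the 4 genes, ligand FPKM was 27.7 ± 1.47 in mES, 31.3 ± 3.26 in RA and 20.8 ± 0.604 in RA/CHIR at day 16, 25 ± 2.23 in XEN and 12 ± 0.795 in SMC. The make-up of the sum also differed between groups. In RA/CHIR cells at day 16, Bmp2 made up 94.5%, 94.8% and 95.6% of it. In RA cells of the same day Bmp4 made up 70.1%, 75% and 66.7%, and Bmp2 14.8% ± 1.24. XEN was split between Bmp4 (53.4% ± 2.81) and Bmp2 (46.6% ± 2.81). The Bmp2 difference of day 16 RA/CHIR cells from XEN was 0.72 ± 0.09 (adjusted p = 1.82e-07), too small for a call. The sum in SMC was nearly all Bmp4 (98.2% ± 0.313), and that in mES was Bmp4 (77.8% ± 7.21) with Bmp7 (20.5% ± 6.95). These shares leave out other ligands of the family. Among those, Bmp6 was at 41.9 FPKM and Gdf6 at 18.6 FPKM in XEN, Gdf6 at 18.3 FPKM in SMC and Gdf3 at 27 FPKM in mES (means). In RA/CHIR cells mean Bmp6 was 10.4, 13.4 and 12.1 FPKM at days 4, 7 and 10, and mean Bmp2 was 5.74, 10.4 and 10.6 FPKM. At day 16 mean Bmp6 was 5.88 FPKM and mean Gdf9 24.6 FPKM in RA/CHIR, where mean Bmp2 was 19.8 FPKM. In RA cells mean Bmp6 was 7.71 FPKM at day 4 and 2.1 FPKM at day 16.

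Between mES and day 4 the inhibitory Smads went opposite ways in the RA arm. Smad6, a BMP target and a brake on BMP receptors, was at 3.14, 1.76 and 1.01 FPKM in mES and at 16.7, 15.5 and 18 FPKM in RA and 7.97, 8.5 and 8.92 FPKM in RA/CHIR cells at day 4. It rose by 2.64 ± 0.16 (adjusted p = 1.47e-13) and 1.73 ± 0.16 (adjusted p = 8.51e-10) on the log2 scale. RA libraries lay above RA/CHIR libraries at each of the 4 days. At day 10 they held 38, 40.4 and 37.6 FPKM against 13.4, 13.8 and 16 FPKM, and at day 16 they held 18, 15.1 and 23 FPKM against 5.16, 6.23 and 5.28 FPKM. Smad6 was called lower in RA/CHIR at day 10 (-1.37 ± 0.16, adjusted p = 7.19e-08) and day 16 (-1.57 ± 0.16, adjusted p = 4.43e-09); the differences at day 4 (-0.90 ± 0.16) and day 7 (-0.77 ± 0.16) had adjusted p of 6.12e-05 and 0.000368 and were too small for a call. RA/CHIR cells at day 16 were also below XEN, which held 20.6, 17 and 16.9 FPKM (difference -1.55 ± 0.16, adjusted p = 5.41e-09). RA cells at day 16 and SMC overlapped (difference 0.12 ± 0.16, adjusted p = 0.528).

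Smad7, which is induced by TGF-beta as well as by BMP, was highest in mES, at 25.8, 29.1 and 26 FPKM. In RA cells at day 4 it was at 11.9, 12 and 11.1 FPKM, a called fall of -1.14 ± 0.11 (adjusted p = 1.65e-09), and in RA/CHIR cells at 17.4, 15.7 and 16.2 FPKM (-0.68 ± 0.11, not called). It was the one gene of the 10 that was called in no comparison of the arms. At days 4 and 7 the arms did not overlap, at 15.7 to 17.4 and 16.7 to 18.1 FPKM in RA/CHIR against at most 12 and 12.6 FPKM in RA, with differences of 0.46 ± 0.11 (adjusted p = 0.00171) and 0.57 ± 0.11 (adjusted p = 0.000171) that were too small for a call and opposite in sign to those of Smad6. The day 16 libraries overlapped, at 7.54, 6.99 and 10 FPKM in RA and 8.18, 8.68 and 10.3 FPKM in RA/CHIR (difference 0.14 ± 0.11, adjusted p = 0.303). RA cells at day 16 were lower than SMC (21.3 ± 2.77 FPKM) with a difference of -1.29 ± 0.11 (adjusted p = 1.58e-10). The ratio of Smad6 to Smad7 within a library was 0.0736 ± 0.0429 in mES, reached 3.5 ± 0.232 in RA and 1.18 ± 0.141 in RA/CHIR cells at day 10, and was 2.28 ± 0.112 and 0.62 ± 0.103 at day 16.

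**Figure D2:**
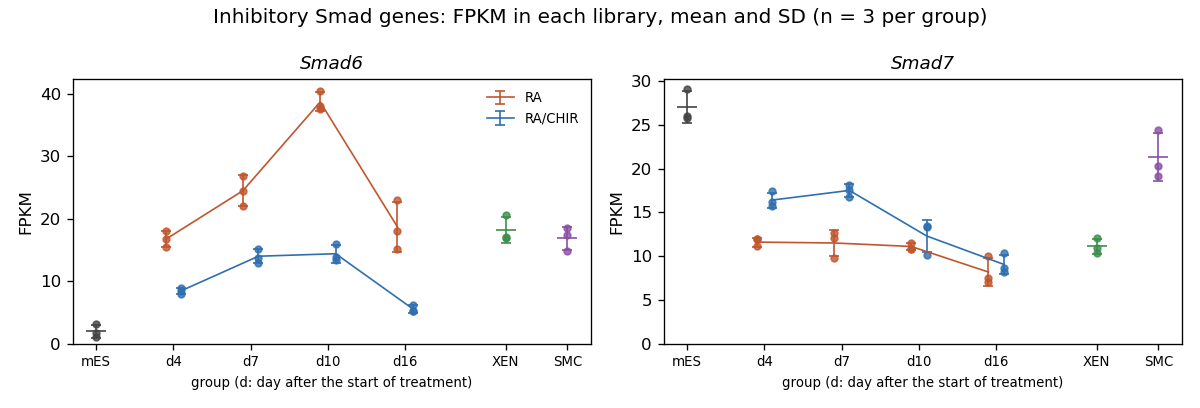
Level of Smad6 and Smad7 in FPKM (y axis, linear) in each library (points) of the 11 groups, with the mean and SD of 3 libraries and lines joining the means within an arm. Smad6 peaks at 38.7 FPKM in RA at day 10 and has a highest RA/CHIR group mean of 14.4 FPKM, whereas the arms overlap for Smad7 at days 10 and 16.

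Of the Id genes, Id1, Id2 and Id3 rose in both arms by day 4 and were lower in RA/CHIR than in RA cells at day 10 and day 16. Id4 followed another course, with low levels at days 4 to 10 and a rise in both arms at day 16. The summed Id FPKM was 120.1 ± 36 in mES, peaked at 1121.1 ± 3.12 in RA cells at day 10 and was 446.8 ± 5.25 in RA/CHIR cells of that day, and at day 16 it was 520.1 ± 120.6 and 151.4 ± 8.13.

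Id1, which is expressed in embryonic stem cells under serum and LIF, was at 70.7, 62.8 and 124.2 FPKM in mES, and replicate 3 stood apart. That library also held 303769.0 FPKM of the short transcript AL626808.1; the part of this in its Id1 value was not tested. At day 4 Id1 was at 344.2, 335.3 and 336.1 FPKM in RA and 205.2, 194.9 and 210.8 FPKM in RA/CHIR, above every mES library. The rises were 2.03 ± 0.18 (adjusted p = 1.54e-10) and 1.30 ± 0.18 (adjusted p = 5.54e-07), and leaving out 1 library at a time gave 1.84 to 2.33 and 1.11 to 1.6. At day 10 the arms were at 442.7, 442.7 and 447.2 FPKM and 214.9, 225.3 and 214.1 FPKM, a difference of -1.02 ± 0.18 (adjusted p = 2.25e-05). At day 16 RA held 241.4, 134.6 and 231.5 FPKM, with replicate 2 low, and RA/CHIR 89.6, 80.5 and 86 FPKM, with a difference of -1.19 ± 0.18 (adjusted p = 2.06e-06). Differences at day 4 (-0.73 ± 0.18) and day 7 (-0.51 ± 0.18) were not called.

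Id2 was the one Id gene called between the arms at day 4 and at day 7. At day 4 the differences of Id1, Id3 (-0.81 ± 0.12, adjusted p = 3.63e-06) and Id4 (-0.63 ± 0.16, adjusted p = 0.0016) were too small for a call, and with a pseudocount of 0.1 Id4 was called as well (-1.18). Id2 was at 12.8, 14.7 and 13.3 FPKM in mES, 118.5, 117.5 and 118.1 FPKM in RA and 35.8, 38.5 and 36.2 FPKM in RA/CHIR cells at day 4. The rises from mES were 3.03 ± 0.09 (adjusted p = 6.31e-21) and 1.37 ± 0.09 (adjusted p = 1.76e-13), and the arms differed by -1.65 ± 0.09 at day 4 (adjusted p = 1.22e-14) and -1.65 ± 0.09 at day 7 (adjusted p = 8.91e-15). At day 10 RA libraries were at 118.3, 126.8 and 114.1 FPKM and RA/CHIR libraries at 19.4, 17.7 and 16.2 FPKM. This difference, -2.69 ± 0.09 (adjusted p = 2.14e-19), was wider than at day 4 by an interaction of -1.03 ± 0.12 (adjusted p = 8.48e-08), which was not called without RA replicate 2 (-0.99) or RA/CHIR replicate 3 (-0.97) of day 10. At day 16 Id2 was at 50.4, 45.3 and 49.1 FPKM in RA, a fall of -1.29 ± 0.09 since day 10 (adjusted p = 1.43e-12), and at 18.9, 21.2 and 17.5 FPKM in RA/CHIR (0.10 ± 0.09 since day 10, adjusted p = 0.315). The gap narrowed accordingly, with an interaction of 1.40 ± 0.12 (adjusted p = 4.28e-10). XEN held very little Id2, at 0.99, 0.521 and 0.975 FPKM, so that RA/CHIR cells at day 16 exceeded XEN by 3.47 ± 0.09 (adjusted p = 3.19e-22).

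On the log2(FPKM + 1) scale, which compresses changes of weak genes, Id3 had the largest rise of the 10 genes between mES and day 4 in each arm. The order depends on that scale, since Bmp2 started from a mean of 0.473 FPKM and Bmp5 from a listed 0. From 13.6, 16.3 and 21.5 FPKM in mES it reached 324.8, 329.6 and 319.3 FPKM in RA and 177.6, 187.7 and 190.2 FPKM in RA/CHIR cells at day 4. The rises were 4.19 ± 0.12 (adjusted p = 8.83e-21) and 3.38 ± 0.12 (adjusted p = 1.32e-18). The arms did not overlap at any day: at day 10 the RA libraries held 554.8, 551.0 and 560.6 FPKM and the RA/CHIR libraries 218.0, 200.7 and 212.1 FPKM (difference -1.40 ± 0.12, adjusted p = 1.35e-10). At day 16 RA libraries held 299.1, 191.2 and 289.9 FPKM, replicate 2 again being the lowest, and RA/CHIR libraries 47.2, 41.3 and 40.1 FPKM (difference -2.55 ± 0.12, adjusted p = 3.94e-16). The widening after day 10 was called as an interaction of -1.15 ± 0.17 (adjusted p = 3.4e-06), which was -0.88 and not called after quantile normalization. SMC was the reference line with high Id3, at 418.7, 435.2 and 402.6 FPKM, and XEN held 90.9, 90.8 and 97.1 FPKM.

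Id4, which in other tissues can oppose the other Id proteins, was at 3.64, 4.12 and 2.52 FPKM in mES. At day 10 it stood at 1.72, 2.01 and 1.42 FPKM in RA and 0.556, 0.319 and 0.99 FPKM in RA/CHIR. At day 16 it was at 8.69, 10.3 and 9 FPKM and 4.96, 3.26 and 3.78 FPKM, above the day 10 libraries of the same arm throughout. Id4 rose by 1.93 ± 0.16 in the RA arm (adjusted p = 8.93e-11) and 1.63 ± 0.16 in the RA/CHIR arm (adjusted p = 1.21e-09), over the same days in which Id1 and Id3 fell. It was lower in RA/CHIR at day 16, with a difference of -1.06 ± 0.16 (adjusted p = 1.52e-06). With a pseudocount of 0.1 Id4 was also called lower at day 10 (-1.43, against -0.76 ± 0.16). The call at day 16 was at the threshold: the difference was -0.97 after quantile normalization, -0.99 without RA replicate 2 and -0.95 without RA/CHIR replicate 2 of day 16. XEN held 0.0323, 0.0577 and 0 FPKM of Id4.

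**Figure D3:**
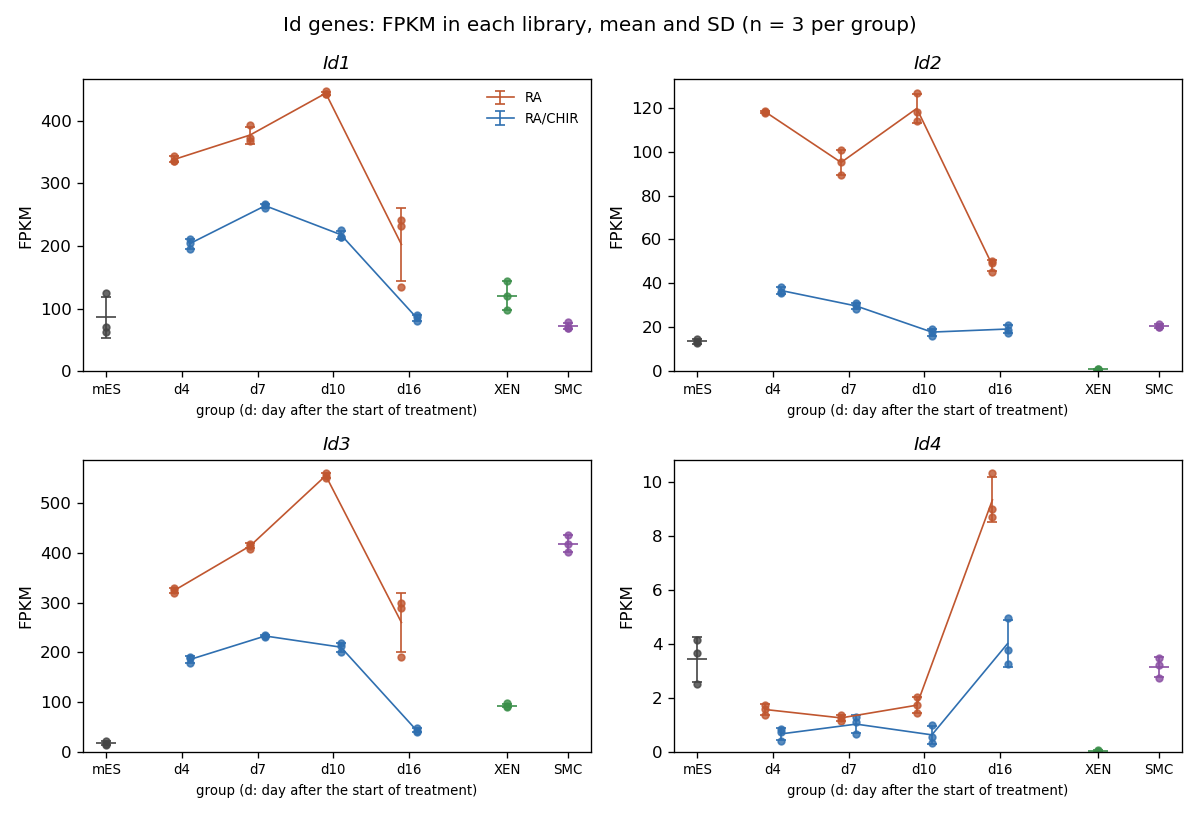
Level of the 4 Id genes in FPKM (y axis, linear, a separate scale for each gene) in each library (points) of the 11 groups, with the mean and SD of 3 libraries and lines joining the means within an arm. Id1 and Id3 peak at 444.2 and 555.5 FPKM in RA at day 10, and Id4 is highest in RA at day 16 (9.32 FPKM).

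After the inducers were withdrawn, the fall of Id1 (-1.18 ± 0.18, adjusted p = 5.34e-06), Id3 (-1.12 ± 0.12, adjusted p = 1.59e-08) and Smad6 (-1.03 ± 0.16, adjusted p = 1.11e-05) in the RA arm was called with all libraries. RA replicate 2 of day 16 held the lowest value of its group for each of the 3 genes. Without that library the changes were -0.91, -0.91 and -0.89 (adjusted p = 7.05e-05, 3.19e-08 and 0.000227), below the size needed for a call, and the other day 16 libraries still lay below every day 10 library of the arm. In the RA/CHIR arm the falls of Id1 (-1.34 ± 0.18, adjusted p = 4.06e-07), Id3 (-2.27 ± 0.12, adjusted p = 9.18e-15) and Smad6 (-1.23 ± 0.16, adjusted p = 4.26e-07) were called whichever library was left out. Over these days summed smooth muscle markers went from between 1119.4 and 1134.2 FPKM to between 7078.8 and 7969.0 FPKM in the RA arm. Summed visceral endoderm markers went from between 10.9 and 12.2 FPKM to between 617.9 and 639.0 FPKM in the RA/CHIR arm; the part of either in the Id levels was not tested.

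The make-up of the Id sum was not the same in all groups. Id1 made up 70.4% ± 6.37 of it in mES, and Id3 14.5% ± 1.84. In RA cells Id3 made up between 41.5% at day 4 and 50% at day 16, with Id1 at 38.5% ± 2.78 at day 16. In RA/CHIR cells Id3 went from 47.1% ± 1.62 at day 10 to 28.3% ± 1.08 at day 16, and Id1 from 48.8% ± 1.7 to 56.4% ± 1.74; the Id1 share of XEN was 55.9% ± 4.01. XEN had almost no Id2 (0.382% ± 0.0972), unlike RA/CHIR cells at day 16 (12.7% ± 1.53). SMC was dominated by Id3 (81.4% ± 0.602). No test was run on these shares.

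**Figure D4:**
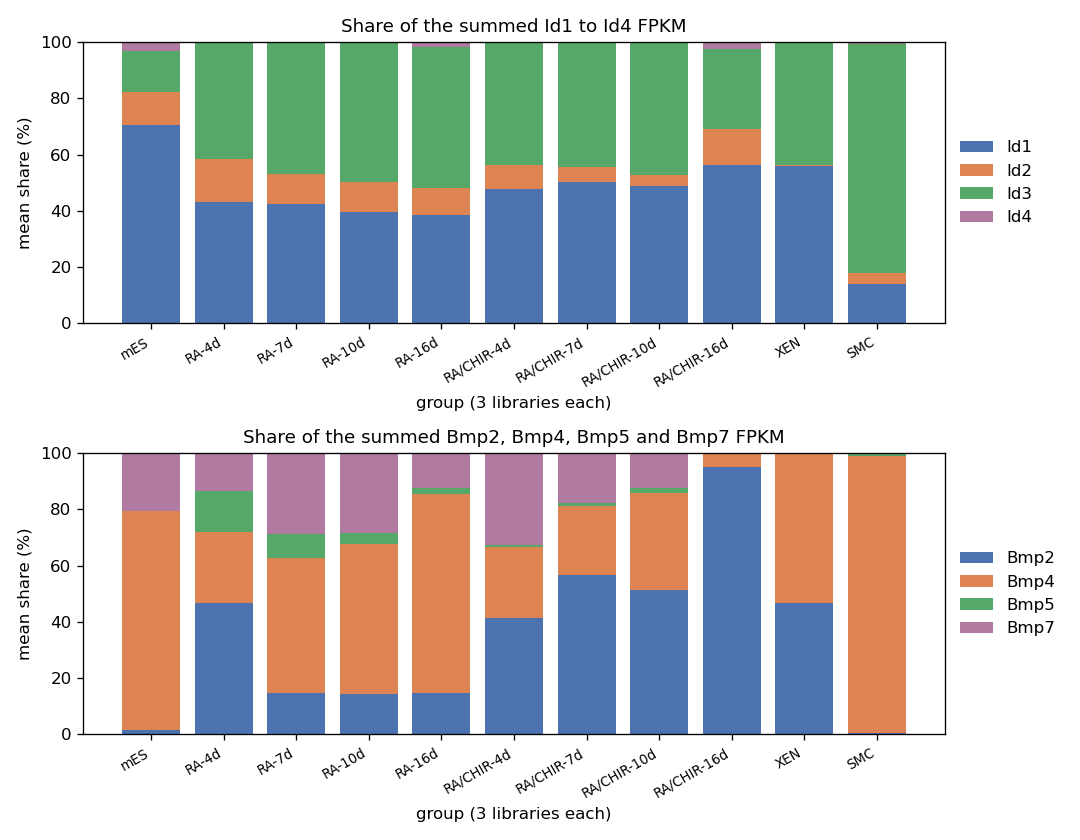
Mean share in percent (y axis, linear from 0) of each Id gene in the summed Id FPKM (upper panel) and of each ligand gene in the summed ligand FPKM (lower panel) in the 11 groups of 3 libraries. Bmp2 fills 95% of the ligand bar in RA/CHIR at day 16, and Id3 fills 81.4% of the Id bar in SMC.

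Set against all genes tested, the 10 genes were called in RA/CHIR against RA in 2 cases at day 4 (7.63% of all 16508 genes were called), 2 at day 7 (10.7%), 5 at day 10 (15.4%) and 8 at day 16 (21.3%). At day 4 these were Bmp5 and Id2, and at day 7 Bmp2 and Id2. At day 10 they were Bmp2, Id1, Id2, Id3 and Smad6, and at day 16 all but Bmp5 and Smad7. Of these, Bmp2 was higher in RA/CHIR and the rest lower. The median difference of the 10 genes was -0.68, -0.57, -0.75 and -1.24 at days 4, 7, 10 and 16, and the median of all genes 0.01, 0.00, 0.00 and -0.01. With adjusted p under 0.05 and no minimum size, 9 of the 10 genes passed at each day, where 42.9%, 47.3%, 55.2% and 61.9% of all genes did. The exceptions were Bmp4 at day 4, Id4 at day 7 and Smad7 at days 10 and 16. The 3 libraries of the arms did not overlap for 9, 9, 8 and 9 of the 10 genes, where this held for 55.2%, 56.7%, 62.4% and 62.9% of all genes.

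Over time, the first step from mES to day 4 changed 9 of the 10 genes in the RA arm (23.4% of all genes) and 7 in the RA/CHIR arm (18.2%). Both steps share the mES libraries. Bmp2, Id1, Id2, Id3 and Smad6 were called higher and Bmp4 lower in each arm. Bmp5 (higher), Bmp7 and Smad7 (lower) were called in the RA arm alone and Id4 (lower) in the RA/CHIR arm alone, without a test of the difference between these steps other than the comparison of the arms at day 4. With a pseudocount of 0.1 this no longer held for Bmp5, also called in the RA/CHIR arm (adjusted p = 0.00328, against 0.259), or for Id4, also called in the RA arm (-1.07, against -0.78 ± 0.16). From day 4 to day 7, Bmp2 was the 1 gene called in the RA arm (4.81% of all genes) and 0 of 10 were called in the RA/CHIR arm (2.72%), where limma gave 6 genes an unadjusted and 5 an adjusted p under 0.05. From day 7 to day 10, 0 of 10 were called in either arm (1.99% of all genes in RA, 1.07% in RA/CHIR), with 5 genes at an unadjusted p under 0.05 by limma in RA (4 at an adjusted p) and 4 in RA/CHIR (3 at an adjusted p). The shares of all genes at such a p in these steps are not given here, so these counts have no background to be set against. From day 10 to day 16, 6 were called in the RA arm (9.17% of all genes) and 6 in the RA/CHIR arm (14.8%). In the RA arm these were Id1, Id2, Id3 and Smad6, lower, and Bmp4 and Id4, higher. Without RA replicate 2 of day 16 the RA count was 3. In the RA/CHIR arm they were Bmp4, Bmp7, Id1, Id3 and Smad6, lower, and Id4, higher. The 2 tests of whether the arms changed differently called 4 genes each: Bmp2, Bmp5, Bmp7 and Id2 from day 4 to day 10 (14.1% of all genes) and Bmp4, Bmp7, Id2 and Id3 from day 10 to day 16 (14.8%). These tests share the day 10 libraries. With a pseudocount of 0.1, limma also called Bmp5 in the interaction from day 10 to day 16 (-2.23, adjusted p = 0.000163). It was then also called lower in the RA/CHIR arm over these days (-2.15, adjusted p = 1.24e-06).

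**Figure D5:**
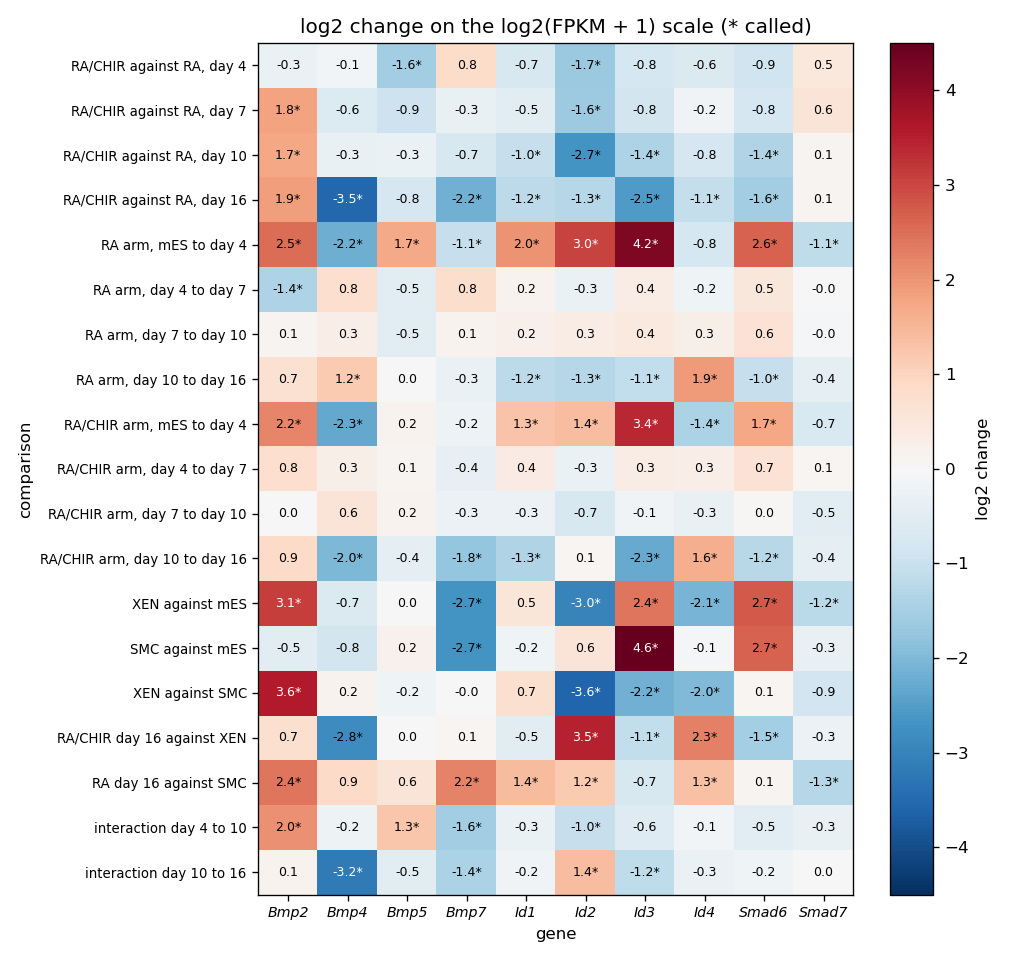
Differences of the 10 genes (columns) on the log2(FPKM + 1) scale in the 19 comparisons (rows), each printed in its cell, with an asterisk where called; red is higher and blue lower in the group named first, or later in time. Where a group is listed at 0, as Bmp5 in mES or Bmp7 in XEN, the value is a model difference and no fold. The RA/CHIR against RA rows are mostly blue at every day. At day 16 the exceptions are Bmp2 at 1.88 and, not called, Smad7 at 0.14.

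Between the reference lines and mES, 7 of the 10 genes were called in XEN (33.1% of all genes) and 3 in SMC (43.2%), the latter share of members lying below that of all genes. Both lines were higher than mES in Smad6 (2.75 ± 0.16 in XEN, adjusted p = 3.37e-14, and 2.65 ± 0.16 in SMC, adjusted p = 4.9e-14) and Id3 (2.40 ± 0.12 and 4.56 ± 0.12, adjusted p = 6.37e-16 and 2.94e-22) and lower in Bmp7, and they share the mES libraries. XEN was also higher in Bmp2 (3.10 ± 0.09, adjusted p = 1.33e-20) and lower in Id2 (-3.01 ± 0.09, adjusted p = 2.91e-21), Id4 and Smad7. In XEN against SMC, 4 genes were called (29.7% of all genes): Bmp2 was higher in XEN (3.56 ± 0.09, adjusted p = 4.77e-22) and Id2, Id3 and Id4 were lower. The day 16 cells were then compared with the line that the labels say they resemble. RA/CHIR cells differed from XEN in 5 of the 10 genes (23.2% of all genes), with Id2 and Id4 higher and Bmp4, Id3 and Smad6 lower in RA/CHIR. The Id3 difference (-1.10) was -0.97 and not called after quantile normalization. RA cells differed from SMC in 6 (25.5% of all genes), with Bmp2, Bmp7, Id1, Id2 and Id4 higher and Smad7 lower in RA.

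Secreted antagonists and modulators, which bind BMPs outside the cell, were the best populated of the pathway lists, with 17 of 19 genes tested. In RA/CHIR against RA, 2, 8, 8 and 6 of them were called at days 4, 7, 10 and 16 (7.63%, 10.7%, 15.4% and 21.3% of all genes were), of which 0, 2, 2 and 1 were higher in RA/CHIR. The list's median was -0.56, -0.83, -0.71 and -0.72. Fst, the gene of the activin and BMP binder follistatin, was at 80.2 to 86 FPKM in RA and 5.5 to 5.97 FPKM in RA/CHIR cells at day 4 (-3.61 ± 0.11, adjusted p = 8.85e-20). Its order turned later, with 6.37 to 8.74 FPKM in RA and 10.6 to 13.3 FPKM in RA/CHIR at day 10 (0.60 ± 0.11, not called) and 30.2 to 33.6 FPKM and 46 to 53.5 FPKM at day 16 (0.59 ± 0.11, not called). Nbl1 was at 49.8 to 56.7 FPKM in RA and 4.47 to 7.99 FPKM in RA/CHIR cells at day 16 (-2.88 ± 0.13, adjusted p = 1.9e-16). Chrdl2 reached 4.78 to 7.42 FPKM in RA cells at day 16, when each RA/CHIR library had it listed at 0. The BMP antagonist Nog was higher in RA/CHIR at day 7, 10 and 16 (1.50 ± 0.17, 1.52 ± 0.17 and 1.39 ± 0.17), at 19.7 to 25.9 FPKM against 6.09 to 9.03 FPKM at day 16. Sostdc1, named after its values were seen, was the other antagonist gene called higher, at days 7 and 10. It was listed at 0 in each RA library and at 3.11 to 3.58 FPKM in RA/CHIR at day 10. XEN held Nog at 41.6 to 46.7 FPKM and SMC was listed at 0. XEN and RA/CHIR cells at day 16 thus had the highest mean Nog and the highest mean Bmp2 of the 11 groups.

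Of 13 other ligand genes of the family, 6 were tested. Some reached levels like those of the ligand genes followed here. Bmp6 was at 41.9 ± 2.25 FPKM in XEN and Gdf3 at 27 ± 10.6 FPKM in mES. Gdf6 was at 18.6 ± 2.73 FPKM in XEN and 18.3 ± 2.61 FPKM in SMC. Bmp8a and Gdf11 reached at most 4.42 and 7.57 FPKM in any library. Gdf6 was lower in RA/CHIR from day 7, and at day 10 was at 8.71 to 10.5 FPKM in RA and 0.129 to 0.31 FPKM in RA/CHIR (-3.12 ± 0.14, adjusted p = 3.09e-16). Bmp6 was higher in RA/CHIR at day 10 (1.36 ± 0.14, adjusted p = 4.63e-09) and day 16 (1.15 ± 0.14, adjusted p = 6.22e-08), and Gdf9 likewise, at 21.6 to 26.7 FPKM against 2.36 to 2.98 FPKM at day 16 (2.80 ± 0.16, adjusted p = 2.13e-14). Of 10 tested receptor and co-receptor genes, 1, 0, 1 and 2 were called at days 4, 7, 10 and 16. The shares of all genes were 7.63%, 10.7%, 15.4% and 21.3%. These receptor calls were lower in RA/CHIR. They were the co-receptor gene Rgma at days 4 and 16 and the type I receptor Acvr1 at days 10 and 16 (-1.47 ± 0.13 at each). Of the 6 Smad transducers, 1, 1, 2 and 1 were called at days 4, 7, 10 and 16 (7.63%, 10.7%, 15.4% and 21.3% of all genes). The calls were lower in RA/CHIR: Smad9 at days 4 and 10, Smad3, of the TGF-beta branch, at days 7 and 10 (-2.03 ± 0.08, adjusted p = 4.26e-17 at day 10) and Smad5 at day 16 (-1.03 ± 0.06, adjusted p = 1.28e-13). Among 8 intracellular brakes, the pseudoreceptor gene Bambi at day 10 was the 1 call (-1.04 ± 0.10, adjusted p = 6.42e-10), where 15.4% of all genes were called. Of 3 E protein genes, whose products the Id proteins bind, Tcf3 was lower in RA/CHIR at day 10 (-1.12 ± 0.07, adjusted p = 7e-14). At that day 15.4% of all genes were called, and no other call was made on this list at the 4 days.

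The 12 tested transcription factor genes known as BMP-responsive went both ways at days 4 and 7, but every call at days 10 and 16 was lower. In RA/CHIR against RA, 5 were called at day 4 (7.63% of all genes), 7 at day 7 (10.7%), 5 at day 10 (15.4%) and 6 at day 16 (21.3%). Of these, 2, 4, 0 and 0 were higher and 3, 3, 5 and 6 lower in RA/CHIR. The list's medians were -0.04, -0.29, -0.48 and -1.0. Tbx2 was lower in RA/CHIR at days 4, 7, 10 and 16, and at day 16 was at 21.3 to 27.9 FPKM in RA and 0.131 to 0.456 FPKM in RA/CHIR (-4.28 ± 0.14, adjusted p = 1.23e-19). Gata2 was lower at the same days, with a difference of -3.20 ± 0.21 at day 10 (adjusted p = 5.19e-13). Msx1 went the other way early, at 47.9 to 53.5 FPKM in RA/CHIR and 5.88 to 7.52 FPKM in RA at day 4 (2.76 ± 0.14, adjusted p = 1.68e-14), and so did Dlx3 (2.34 ± 0.15, adjusted p = 1.1e-12). At day 4, when Id2 was lower in RA/CHIR, calls on this list went both ways, with 2 higher and 3 lower. Of 13 tested genes of the Nodal, activin and TGF-beta branch, 2, 1, 1 and 7 were called (7.63%, 10.7%, 15.4% and 21.3% of all genes). The calls at day 16 went both ways, with 3 higher in RA/CHIR (Lefty2, Tgfbr2 and Tgfbr3, named after their values were seen) and 4 lower. Tgfb3 at day 16 was at 135.6 to 166.8 FPKM in RA and 1.81 to 2.47 FPKM in RA/CHIR (-5.65 ± 0.10, adjusted p = 3.36e-25); SMC held 275.2 to 280.8 FPKM. The lists were chosen with earlier results of these data known and are described by counts only.

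Across the 11 group means of log2(FPKM + 1), Id3 and Smad6 were the pair of members with the closest course (Pearson r = 0.90), followed by Bmp5 with Id1 and with Id2 (0.74 each), Id1 with Id2 (0.69), Id1 with Id3 (0.67) and Id1 with Smad6 (0.66). Bmp2 and Bmp4 had r = -0.61. These are descriptions over 11 points that share mES, culture days and library preparation. Among 11675 other genes with a group mean of at least 5 FPKM, those closest to Id1 were Kantr (r = 0.975), Grip1 and Tceal5, to Id2 Armcx4 (0.965), Alg2 and Brf2, and to Id4 Angptl4 (0.958), Dusp1 and Icam1. Closest to Id3 were Nudt16 (0.962), Tcf12 (0.960), which codes for an E protein, and Ttc8. Closest to Smad6 were Zfp768 (0.972), Izumo4 and Irs1, and to Smad7 Klhdc4 (0.973), Exosc9 and Rrs1. For the ligands they were Spock1 (0.975), P3h2 and Shtn1 for Bmp2, Psmb1 (0.869), CT030170.4 and Eml2 for Bmp4, Hoxb13 (0.935), Neto2 and Sst for Bmp5, and Arvcf (0.964), Meioc and Ankmy2 for Bmp7. The choice depends on the measure: by Spearman's rho, 3 of these 30 genes were again among the closest 3.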

How the data were processed

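The deposited table gives FPKM per gene and library, as the authors computed it, with no read counts. Cufflinks, Cuffdiff, HISAT2 2.0.4, Trimmomatic 0.33 and the build GRCm38 are named in the submitters' processing notes, without parameters; FPKM scaling means that a few very abundant transcripts can lower all other values of a library. Columns were matched to samples by title, and all 33 were used. The FPKM were taken as log2(FPKM + 1), with no scaling added, into 1 limma 3.58.1 model (R 4.3.3) of 11 groups over 33 libraries with a trended prior variance, 22 residual degrees of freedom and Benjamini-Hochberg adjustment over 16508 genes; p-values are two-sided. The pseudocount of 1 compresses differences of weak genes. The script was tested on simulated data. The members and the pathway and marker lists were chosen with earlier results of these data known. Named beyond the members are, per list, called genes with the largest differences between the arms, and per member the 3 genes with the highest Pearson r over group means. Promoter sequences come from RefSeq (GRCm38.p6). Replicate numbers were not used to pair the samples, since same-numbered libraries were not all correlated above 0.1 in any comparison (deviations from group means). In RA/CHIR against RA at days 4 and 7, each of the 3 RA/CHIR libraries correlated best with the RA library of its own number. The values of r there were 0.055, 0.070 and 0.041 at day 4 and 0.103, 0.039 and 0.096 at day 7, so pairing is not excluded. Alternatives were scaling factors of the TMM kind, quantile normalization, a pseudocount of 0.1, no filter or 5 FPKM, no variance trend, only the groups compared, a replicate block, adjusted p alone, leaving out each library, Spearman's rho, and promoter windows without the 50 bases after the start. Figures used matplotlib 3.10.9 in Python 3.11.15.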

Additional observations from a re-analysis of the deposited data

Results flagged for a closer look

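In 8 cases the arms changed differently over time by the interaction test of limma, which is what singled them out. From day 4 to day 10 the RA/CHIR against RA difference moved by 2.05 for Bmp2, 1.26 for Bmp5, -1.57 for Bmp7 and -1.03 for Id2 (log2 scale). From day 10 to day 16 it moved by -3.18 for Bmp4, -1.44 for Bmp7, 1.40 for Id2 and -1.15 for Id3. Bmp7 and Id2 were called over both spans, Bmp7 in the same direction and Id2 in opposite directions. With a pseudocount of 0.1, Bmp5 was also called from day 10 to day 16 (-2.23). Both spans use the day 10 libraries, with opposite sign, so a deviation at day 10 would move them in opposite directions. Groups of 3 libraries were too small for the check of single outlying libraries.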

How the results depend on the processing

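Of 2741 recomputed member differences under the same call rule, 2712 kept their call, 14 lost it, 15 gained it (14 with a pseudocount of 0.1) and 0 reversed. With a pseudocount of 0.1, 4 members were called at day 4 between the arms (2 in the reported fit), 2 from day 4 to day 7 in the RA arm (1 reported) and 5 in SMC against mES (3 reported), and all-gene counts between the arms at days 4, 7 and 10 were 2192, 2964 and 3888 (1259, 1762 and 2546 reported). From day 4 to day 7 in the RA arm, 1584 genes were called with that pseudocount (794 reported). Over all comparisons its all-gene count was 1.21 to 2.99 times the reported one. A filter at 5 FPKM left 1 member called at day 4, since it removed Bmp5 itself (at most 2.54 FPKM in any library). With adjusted p alone, which drops the minimum size, the members called between the arms were 9 at days 4, 7 and 10, and the genes called 7084, 7812, 9112 and 10216 at days 4 to 16. By that rule 7 members passed from day 4 to 7 and 4 from day 7 to 10 in the RA arm, 5 and 3 over the same steps in the RA/CHIR arm, 7 in SMC against mES and 8 in RA/CHIR at day 16 against XEN. The count of all genes also grew by that rule, to between 1.76 and 18.78 times the reported count over all comparisons. Leaving out 1 library at a time gave 3 to 6 members called from day 10 to day 16 in the RA arm. Quantile normalization gave -0.97 for Id3 in RA/CHIR at day 16 against XEN (-1.10 reported, then not called) and moved the median of all genes in XEN against mES from -0.13 to 0.02, and in RA/CHIR at day 16 against XEN from 0.07 to -0.08. The replicate block changed no member's call; with it, 8 members were called between the arms at day 16, as without it. Smad6 in the RA arm from day 10 to day 16 was -1.0, and not called, without RA replicate 2 of day 10. Bmp5 between the arms at day 7 was -1.06, and called, without RA replicate 3. The cause of these changes was not tested. The shares of promoters with a motif in the 250 bases before the start alone were 9.59% for GGCGCC, 26% for GGAGCC, 0.167% for GTCTAGAC, 13% for CAGCTG and 6.02% for CACGTG. Depth is unknown, so values near 0, as of Bmp5, Bmp7 in RA/CHIR at day 16 or Id4 in XEN, carry no counting interval.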
